A study of Mus musculus with 4 samples.

Results

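Follicular helper T cells in which transcripts of only 1 of 2 helper cytokine genes, Il21 or Il4, were detected were set side by side. The cells came from the Tfh sort and were chosen by counts of unique molecular identifiers (UMIs, each standing for 1 captured RNA molecule). A cell entered with 500 or more genes, at most 10% mitochondrial UMIs and 0 UMIs of Cd79a, Cd8a, Cd8b1 and Il13, which keeps out cells with a B-cell, CD8 T-cell or IL-13 transcript. Il21-only cells had 2 or more Il21 UMIs and 0 of Il4, and Il4-only cells had 2 or more Il4 UMIs and 0 of Il21. A count of 0 means that no molecule was captured, so a cell of either side may still hold the other transcript. There were 331 Il21-only cells (136, 129 and 66 from mice 1, 2 and 3) and 358 Il4-only cells (138, 135 and 85), which makes 689 of the 3956 barcodes of the sort and of the 11602 barcodes of both sorts of the study. The same gate left 378 cells with 2 or more UMIs of each gene, 726 with 0 of each, called neither here, and 1001 others.

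The Tfh sort held TCRβ+ CD4+ CD44+ PD-1+ CXCR5+ cells of C57BL/6 mice. They were taken from the mediastinal lymph node, which drains the lung, on day 7 after Alternaria alternata extract, a mould allergen (10 μg), and the hapten-carrier antigen NP-OVA (25 μg) had been given together into the nose. A further sort held GFP-positive CD44+ CD4 T cells of 3 mice of the 4GET IL-4 reporter strain on the same background, which make GFP where the Il4 locus has been opened, after the same immunization. Before capture the cells of both sorts were restimulated for 30 min with PMA plus ionomycin, so every cytokine level is a level after restimulation, and unstimulated cells were not analysed here. Each mouse of a sort carried its own hashtag antibody, the 3 mice of a sort shared 1 lane, and the labels give no age.

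IL-21 and IL-4 are the main cytokines through which follicular helper cells steer germinal centre B cells. IL-21 promotes B-cell expansion and plasma cell differentiation, and IL-4 promotes switching to IgG1 and IgE. PMA activates protein kinase C and ionomycin raises intracellular calcium, and together they switch on AP-1, NF-κB and NFAT, which drive cytokine genes in T cells without the T-cell receptor.

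The counts of Il21 and Il4 chose the cells and are given only as a description. Among cells with 0 Il4 UMIs, 296 had exactly 1 Il21 UMI and lay just outside the Il21-only group, while 147 lay just inside it with 2, and the highest count was 18. Among cells with 0 Il21 UMIs, 230 had exactly 1 Il4 UMI and 100 had 2, and the highest count was 51. Droplets with B-cell transcripts (3 or more Cd79a UMIs, a Cd79b or Ms4a1 UMI and no Cd3 UMI) should lack both cytokines. Of 282 such droplets, at a median of 2109 UMIs, 3 had 2 or more Il21 UMIs (1.06%, exact Clopper-Pearson 95% interval 0.220 to 3.08%) and 2 had 2 or more Il4 UMIs (0.709%, 0.0860 to 2.54%). The background was higher in the wider set of all 762 droplets with a Cd79a UMI, at a median of 2451.5 UMIs. There 11.9% had 2 or more Il21 UMIs and 13.3% had 2 or more Il4 UMIs. This wider set was not limited to droplets without a Cd3 UMI, and the part of T-cell RNA in it was not tested. In the gated T cells, at a median of 2726.5 UMIs, the shares were 30.1% and 35.0%.

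Both groups carried the transcripts that their label asks for. A Cd3d, Cd3e or Cd3g UMI was in all 331 Il21-only and all 358 Il4-only cells, a Cd4 UMI in 54.4% and 54.7%, and a Cxcr5 UMI in 26.6% and 29.1%. A UMI of Foxp3, the regulatory T-cell factor, was in 2 (0.604%) and 7 (1.96%) cells. Median UMIs per cell were 3011.5, 2700 and 2834.5 in the Il21-only cells of mice 1, 2 and 3, and 2716.5, 2684 and 3180 in the Il4-only cells. Cells with both lay higher, at 3597.5 to 4055, and neither cells lower, at 2174 to 2411. Summed over the cells of a mouse, the UMI totals were 487301, 425604 and 219174 for the Il21-only cells and 506083, 486035 and 347818 for the Il4-only cells. Summed levels of 13 B-cell markers lay at 921 to 995 CPM (counts per 1000000 UMIs) and 940 to 1035 CPM on the 2 sides, against 2165 to 4141 CPM in the neither cells, and no gene of that list was at 0 on either side. The 13 macrophage and dendritic cell markers summed to 92.3 to 256 CPM and 115 to 132 CPM, with 6 of them at 0 on each side.

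The first comparison asked which other genes differ between Tfh cells with Il21 and Tfh cells with Il4 transcripts. UMIs were summed per mouse and side, the mouse was the replicate (n = 3), and a gene is said to be called at a Benjamini-Hochberg adjusted p under 0.05 in edgeR's quasi-likelihood test. Of 5452 genes tested, 90 were called (1.65%), 63 higher (1.16%) and 27 lower (0.495%) in Il21-only cells. The higher calls were led by cytokine and type 1 genes, Il2, Tnf, Cd40lg and Ifng among them. The lower calls held cell division genes, and Gata3 among others. Most higher calls were small, since their median was 0.48 on the log2 scale and 32 of 63 were under 0.5, while the median of the lower calls was 0.94 in size. Of the 63 higher genes, 15 were still called whichever mouse was left out, and of the 27 lower genes 0 were. Without mice 1, 2 and 3, 19, 1 and 4 of the 27 lower genes were called, so most lower calls rest on mice 2 and 3. The fitted sums share 1 lane and 1 preparation, and p-values measure the spread between these mice only.

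Il2 encodes a T-cell growth factor. It stood at 1595, 1648 and 1847 CPM in the Il21-only cells of mice 1, 2 and 3 and at 725, 720 and 782 CPM in the Il4-only cells. All 3 mice were higher on the Il21 side and the sides did not overlap. The log2 difference was 1.19 ± 0.12 (SE), with an edgeR adjusted p of 9.0e-08. An Il2 UMI was in 58.6% of Il21-only and 39.9% of Il4-only cells, and in 47.4% and 27.8% after each cell was thinned to 1500 UMIs, so more cells carried it at equal depth. Cells with both cytokines were near the Il21 side, at 1349 ± 263 CPM (SD, n = 3), and neither cells near the Il4 side, at 654 ± 158 CPM.

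Tnf encodes an inflammatory cytokine, and Cd40lg the CD40 ligand through which helper cells license B cells. Tnf measured 905, 912 and 987 CPM in Il21-only cells and 499, 609 and 500 CPM in Il4-only cells (log2 0.79 ± 0.09 SE, edgeR adjusted p = 2.8e-06). Cd40lg measured 1369, 1274 and 1518 CPM and 915, 1034 and 788 CPM (0.58 ± 0.09, edgeR adjusted p = 9.6e-05). Both genes were higher on the Il21 side in 3 of 3 mice, without overlap of the mice. The percentage of genes whose mice did not overlap in that direction was 8.11% over all genes tested. Il2, Tnf and Cd40lg kept their call without any 1 mouse and at matched depth, and lost it where the limit was 4 UMIs in place of 2 (log2 0.79, 0.57 and 0.44, edgeR adjusted p = 0.21, 0.20 and 0.21), a setting with fewer cells and 3696 genes tested.

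**Figure D1:**
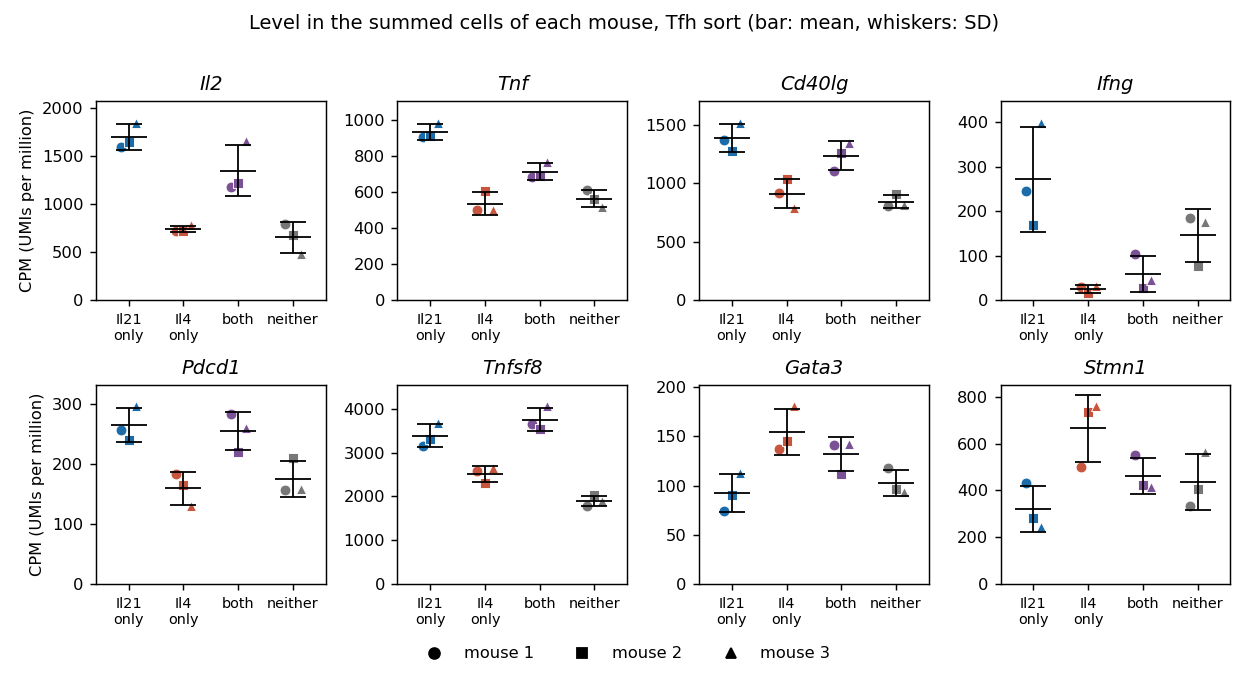
Level (CPM, vertical axis from 0) of 8 genes in the summed cells of each of 3 mice, for Il21-only, Il4-only, both and neither cells of the Tfh sort; symbols mark the mice, bars the mean and whiskers the SD. Il2, Tnf, Cd40lg, Ifng, Pdcd1 and Tnfsf8 are higher in Il21-only than in Il4-only cells of each mouse, and Gata3 and Stmn1 are lower.

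Il2 is also the neighbour of Il21. In GRCm38 with the GENCODE M21 annotation Il2 lies on the minus strand of chromosome 3 at 37120523 to 37125959 and Il21 at 37222759 to 37232636, with 96799 bases between them. Of the 10 genes listed around Il21, 3 could be tested, and Il2 was the called one. The other two, 4932438A13Rik and Spry1, had log2 differences of 0.14 and 0.35 (edgeR adjusted p = 0.88 and 0.45). Tnf lies on chromosome 17 (35199381 to 35202007), Cd40lg on chromosome X (57212143 to 57224042) and Ifng on chromosome 10 (118441046 to 118445892). Of the 15 genes listed around Il4 on chromosome 11, 4 could be tested and 0 were called by edgeR or DESeq2, with 0 at an unadjusted p under 0.05.

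The promoters of Il21 and of 3 cytokine genes that were higher beside it are shown because PMA and ionomycin act on NFAT and AP-1, whose core motifs can be read in them. Each is the 250 bases before the RefSeq start (GRCm38.p6), 5′ to 3′ on the strand of the gene: chr3:37232637-37232886 (minus) for Il21, chr3:37125955-37126204 (minus) for Il2, chr17:35202008-35202257 (minus) for Tnf and chr10:118440796-118441045 (plus) for Ifng. Capitals mark the NFAT core GGAAAA on either strand, so that TTTTCC is the same motif read on the other strand. The AP-1 motif TGANTCA was searched on both strands as well.
Il21 promoter: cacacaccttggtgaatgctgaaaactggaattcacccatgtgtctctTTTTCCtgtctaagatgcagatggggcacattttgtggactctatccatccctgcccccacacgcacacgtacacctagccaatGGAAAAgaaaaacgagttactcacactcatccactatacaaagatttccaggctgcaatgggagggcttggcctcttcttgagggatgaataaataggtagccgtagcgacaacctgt
Il2 promoter: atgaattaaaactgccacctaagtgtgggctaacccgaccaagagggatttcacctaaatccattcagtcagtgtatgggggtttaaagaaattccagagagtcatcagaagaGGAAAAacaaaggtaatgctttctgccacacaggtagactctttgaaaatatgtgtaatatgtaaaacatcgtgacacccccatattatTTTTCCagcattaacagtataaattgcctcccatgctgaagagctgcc
Tnf promoter: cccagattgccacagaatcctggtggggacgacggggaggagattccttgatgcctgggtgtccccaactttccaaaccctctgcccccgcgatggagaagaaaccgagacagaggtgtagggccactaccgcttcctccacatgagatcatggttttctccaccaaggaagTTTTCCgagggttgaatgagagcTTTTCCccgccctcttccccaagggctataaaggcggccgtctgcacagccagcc
Ifng promoter: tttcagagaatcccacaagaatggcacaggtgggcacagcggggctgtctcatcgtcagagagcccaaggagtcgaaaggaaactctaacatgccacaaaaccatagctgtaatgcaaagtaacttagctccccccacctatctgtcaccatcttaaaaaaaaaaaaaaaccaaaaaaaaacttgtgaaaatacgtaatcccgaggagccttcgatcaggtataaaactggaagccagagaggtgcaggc
Il21, Il2 and Tnf each hold 2 matches to GGAAAA and Ifng holds 0, and none of the 4 holds TGANTCA. Among 32851 promoters of the same length, 20.4% hold GGAAAA and 6.75% hold TGANTCA, whatever the number of matches. The promoter of Il4 is not shown, so the matches do not set the sides apart. A match is a description of the letters and not a bound site.

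Type 1 genes gave the largest differences. Ifng, the gene of interferon-γ, stood at 247, 169 and 400 CPM in Il21-only cells and at 29.0, 16.1 and 31.1 CPM in Il4-only cells. The lowest Il21-only mouse was above the highest Il4-only mouse. The log2 difference was 3.37 ± 0.27 (SE), with an edgeR adjusted p of 1.4e-09, and it was called in every alternative that gave an adjusted p. Neither cells stood between, at 146 ± 60.1 CPM, and cells with both at 59.3 ± 39.8 CPM (SD, n = 3).

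The Ifng signal lay in a minority of cells. An Ifng UMI was in 40 of 331 Il21-only cells (12.1%) and 20 of 358 Il4-only cells (5.59%), or 8.87% and 3.41% at 1500 UMIs per cell. These cells held 275 and 34 Ifng UMIs, and the 10 highest Il21-only cells held 160 of the 275. Of the 40 Il21-only cells, 12 also had a UMI of Nkg7, Gzmk, Ccl5 or Xcl1, genes of cytotoxic and type 1 cells, and they held 112 Ifng UMIs. Of the 20 Il4-only cells 0 did, which allows a share of up to 15%. With or without Ifng, a UMI of those 4 genes was in 23 Il21-only cells (6.95%) and 9 Il4-only cells (2.51%). Among neither cells 76 of 726 had one (10.5%). At 1500 UMIs per cell the shares were 5.5%, 1.42% and 8.18%, so differences in these 4 genes rest on few cells. Without all cells that carried 1 of those 4 genes the Ifng difference was 2.62 (edgeR adjusted p = 4.4e-08).

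Other genes of the Th1 and cytotoxic list moved the same way. Of its 16 genes, 10 passed the filter on low counts, 8 were called higher in Il21-only cells and 0 lower, against 1.16% and 0.495% of all genes, and the median difference was 3.19 against −0.01 over all genes tested. Genes that pass the filter through 1 side only had to differ, so the median of those that passed is a description. With Gzmk, at 0 counts in Il4-only cells, set to its bound the median was 3.19 too. Cxcr3, a receptor for interferon-induced chemokines, stood at 60.2, 57.1 and 98.7 CPM against 7.74, 24.2 and 22.6 CPM (log2 1.95 ± 0.34, edgeR adjusted p = 0.0010). Nkg7, a cytotoxic granule gene, had 42 UMIs against 1, a ratio of 49.7 with a counting interval of 8.45 to 2010. Gzmk, a granzyme gene, had 25 UMIs against 0, which makes the Il21-only level at least 9.86-fold higher when 3 counts over all Il4-only cells are taken as the floor, and its edgeR adjusted p without mouse 1 was 0.092. Intervals and floors cover counting error only.

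The chemokine genes of this list differed between mice more than Ifng did. Ccl4 stood at 199, 35.7 and 776 CPM in Il21-only cells and 25.1, 22.2 and 36.7 CPM in Il4-only cells, and Ccl3 at 35.3, 9.53 and 310 CPM and 5.80, 4.03 and 8.47 CPM. The Il21-only cells of mouse 3 were highest in both genes, and the mice overlapped between the sides for Ccl4. The log2 differences were 3.23 ± 0.41 and 3.81 ± 0.58 (edgeR adjusted p = 9.9e-06 and 0.00016). Without mouse 3 Ccl3 stood at 2.16 (edgeR adjusted p = 0.29). Without the cells that carried Nkg7, Gzmk, Ccl5 or Xcl1, Ccl4 stood at 1.28 and was not called (edgeR adjusted p = 0.070). Ccl3 and Ccl4 are related chemokine genes, and whether reads were split between them was not tested. Xcl1 (253, 4.76 and 0 CPM) and Ccl5 (85.1, 4.76 and 9.40 CPM) were called too, and are named after their values were seen. Both were highest in the Il21-only cells of mouse 1. Without that mouse Xcl1 stood at 1.2 (edgeR adjusted p = 0.87) and Ccl5 was under the filter. Stat4 and Id2, the remaining tested genes, were not called (0.64 and 0.21, edgeR adjusted p = 0.060 and 0.83). The summed list reached 1211, 540 and 1916 CPM in Il21-only cells, 293 to 306 CPM in Il4-only cells and 605 to 1401 CPM in neither cells. Of 7 natural killer and NKT markers 0 could be tested, and 4 were at 0 on each side.

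**Figure D2:**
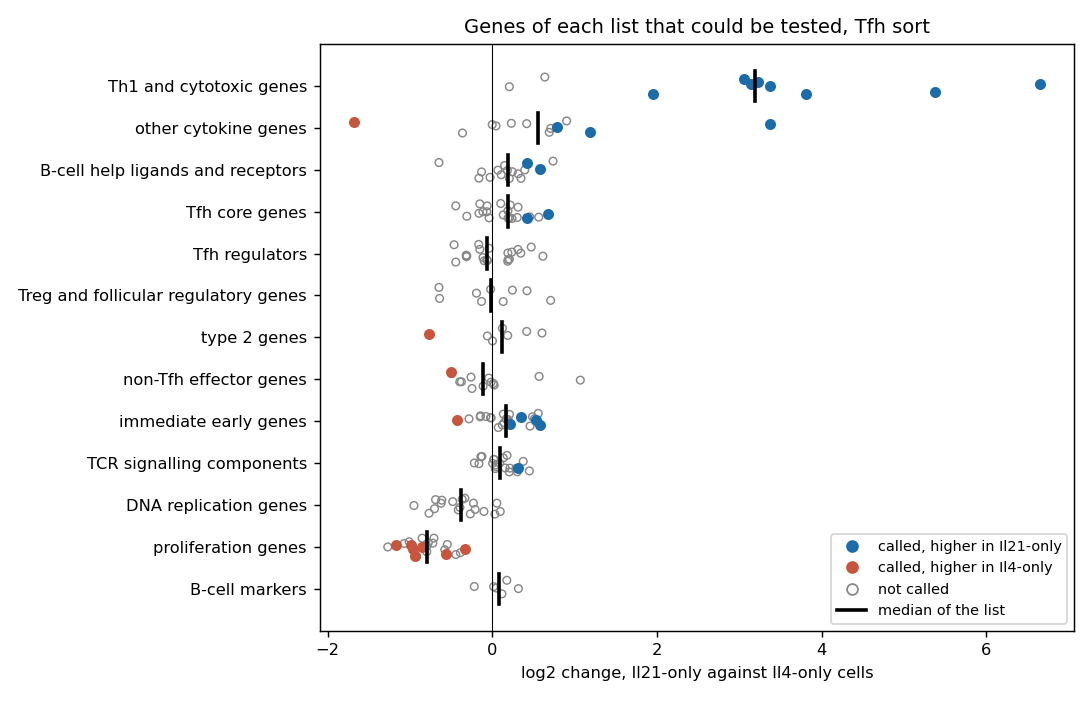
Log2 change between Il21-only and Il4-only cells (horizontal axis, positive where Il21-only cells are higher) for each tested gene of 13 lists; filled points are called at an edgeR adjusted p under 0.05, open points are not, and black bars are list medians. Th1 and cytotoxic genes lie to the right with 8 of 10 called, proliferation genes to the left with 7 of 21 called, and Tfh regulators around 0 with 0 of 21 called; the point of Gzmk, at 0 counts in Il4-only cells, is a fitted value and no bound.

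Of 22 Tfh core genes, which mark follicular identity, 21 were tested and 2 were called higher, Pdcd1 and Tnfsf8, and 0 lower, against 1.16% and 0.495% of all genes, with a median difference of 0.19. Bcl6, the master regulator of the lineage, stood at 16.6, 26.2 and 23.5 CPM against 17.4, 24.2 and 14.1 CPM (0.19 ± 0.43 SE, edgeR adjusted p = 0.92), a level of few UMIs. Cxcr5, the receptor that leads the cells into follicles, differed by 0.10 ± 0.22, the costimulatory receptor gene Icos by 0.21 ± 0.21, the transcription factor genes Maf by −0.15 ± 0.17 and Tcf7 by −0.11 ± 0.11, and Sostdc1, which encodes a secreted inhibitor of BMP and Wnt signals, by 0.19 ± 0.22. None of these 5 was called (edgeR adjusted p = 0.77 to 0.91), and their 95% intervals at 6 residual degrees of freedom reach from −0.57 to 0.73, and that of Bcl6 from −0.87 to 1.24, so moderate differences were not detectable. Of 25 Tfh regulators 21 were tested and edgeR called 0 (median −0.06), with 4 at an unadjusted p under 0.05 and 1 called by DESeq2. Prdm1 and Foxp3 were under the filter and were not tested.

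Pdcd1 encodes the inhibitory receptor PD-1, which was part of the sort. Pdcd1 stood at 257, 241 and 296 CPM in Il21-only cells and 184, 165 and 130 CPM in Il4-only cells, with no overlap of the mice (0.68 ± 0.16 SE, edgeR adjusted p = 0.020). Its call was lost without mouse 2 or mouse 3 (edgeR adjusted p = 0.081 and 0.26) and in 8 of 18 alternatives in all. Tnfsf8, the CD30 ligand gene, stood at 3160, 3322 and 3685 CPM against 2586, 2309 and 2651 CPM (0.43 ± 0.06, edgeR adjusted p = 4.4e-05), again without overlap. Cells with both had the highest mean level of Tnfsf8, 3756 ± 270 CPM, and neither cells the lowest, 1900 ± 118 CPM (SD, n = 3). Lag3, an inhibitory receptor gene, measured 373, 250 and 244 CPM against 207, 147 and 133 CPM (0.84 ± 0.16, edgeR adjusted p = 0.0023).

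Of the 16 tested genes of B-cell help, Cd40lg and Tnfsf8 were called higher and 0 lower, against 1.16% and 0.495% of all genes (median 0.19). Fasl, the death ligand gene of the same list, stood at 91.3, 83.3 and 98.7 CPM against 56.1, 56.5 and 48.0 CPM (0.74 ± 0.22, edgeR adjusted p = 0.094). In the list of 12 other cytokine genes tested, Il2, Ifng and Tnf were called higher and Csf1 lower, against the same shares of 1.16% and 0.495%. Il10, the regulatory cytokine gene, measured 102, 114 and 230 CPM against 110, 76.6 and 53.6 CPM, with overlap and no call (0.71 ± 0.26, edgeR adjusted p = 0.21). Lta and Ltb, the lymphotoxin genes, gave 0.90 ± 0.37 and 0.05 ± 0.12 (edgeR adjusted p = 0.31 and 0.93).

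Activation genes showed mixed, small differences. Of 23 tested immediate early genes 4 were called higher (Nr4a1, Nr4a2, Myc and Btg2) and 1 lower (Dusp1), against 1.16% and 0.495% of all genes, with a median of 0.17. Nr4a1 (0.21) lost its call without any 1 mouse (edgeR adjusted p = 0.16 to 0.24) and Btg2 (0.35) without mouse 2 or 3 (edgeR adjusted p = 0.058 and 0.29). Nr4a2, an orphan nuclear receptor gene induced by antigen receptor signals, stood at 1012, 943 and 1029 CPM against 741, 677 and 635 CPM (0.53 ± 0.09, edgeR adjusted p = 0.0014). Fos, Junb and Egr1, targets of the same stimulus, differed by −0.08, 0.12 and 0.17 and were not called (edgeR adjusted p = 0.34 to 0.58). Dusp1, a MAP kinase phosphatase gene, was lower in Il21-only cells at 757, 752 and 738 CPM against 928, 1067 and 1059 CPM (−0.43 ± 0.08, edgeR adjusted p = 0.0029), and without mouse 2 its adjusted p was 0.14. Myc, the growth regulator, measured 411, 343 and 353 CPM against 255, 238 and 254 CPM (0.58 ± 0.15, edgeR adjusted p = 0.035), and lost its call without mouse 1 or 2 (edgeR adjusted p = 0.095 and 0.29). Nfkbid, a nuclear inhibitor of NF-κB, differed by 0.34 ± 0.07 (edgeR adjusted p = 0.0030, 0.090 without mouse 3). Of 21 T-cell receptor signalling genes 1 was called higher, Cd3e (0.31, edgeR adjusted p = 0.045), against 1.16% of all genes. Its call was lost without any 1 of mice 1, 2 and 3 (edgeR adjusted p = 0.52, 0.14 and 0.17).

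Other genes higher in Il21-only cells came from several classes. Mir155hg, the host gene of miR-155, differed by 0.87 ± 0.15 (edgeR adjusted p = 0.0012), Plscr1, a phospholipid scramblase gene, by 1.05 ± 0.20 (edgeR adjusted p = 0.0033) and Rora, an orphan nuclear receptor gene, by 0.89 ± 0.22 (edgeR adjusted p = 0.032). Ctsl (1.27), a lysosomal protease gene, Chst2 (1.41), a sulfotransferase gene, Trib2 (0.97), a pseudokinase gene, and Yme1l1 (0.89), a mitochondrial protease gene, were called at edgeR adjusted p = 0.023 to 0.044. Without 1 mouse Mir155hg (mouse 1, 0.056), Plscr1 (mouse 2, 0.13), Rora (mice 2 and 3, 0.23 and 0.19), Chst2 (mice 2 and 3, 0.16 and 0.24), Ctsl, Trib2 and Yme1l1 (each of the 3 mice, 0.056 to 0.37) lost their call, the values being edgeR adjusted p. Malat1, a nuclear RNA whose share moves with the quality of cells, was higher at 30228, 36317 and 32834 CPM against 26536, 28727 and 22807 CPM (0.35 ± 0.05, edgeR adjusted p = 6.5e-05). Of 79 cytosolic ribosomal protein genes 13 were called higher and 0 lower, against 1.16% and 0.495% of all genes, by 0.18 to 0.26. Of the 13, 10, 1 and 1 were called without mice 1, 2 and 3, and Rps27 was the one called without each of them. Summed they took 234440 to 240348 CPM in Il21-only and 219311 to 231369 CPM in Il4-only cells. Ribosomal genes have many near copies, so these counts are uncertain gene by gene, and the part of RNA quality in the small differences was not tested.

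Genes higher in Il4-only cells were led by the cell cycle. Of 21 proliferation genes 7 were called lower in Il21-only cells and 0 higher, against 0.495% and 1.16% of all genes, and the median was −0.80 with 21 of 21 values negative. Stmn1, which destabilizes microtubules, stood at 434, 283 and 244 CPM in Il21-only and 499, 736 and 760 CPM in Il4-only cells. The sides did not overlap, but mouse 1 showed a small difference beside mice 2 and 3 (−0.96 ± 0.18 SE, edgeR adjusted p = 0.0020). Ube2c, a ubiquitin-conjugating enzyme gene of mitosis, stood at 91.3, 105 and 103 CPM against 170, 224 and 316 CPM (−1.18 ± 0.26, edgeR adjusted p = 0.015). Birc5, Cdk1, Cenpa and Hmgb2 differed by −0.99, −0.94, −0.85 and −0.56, and outside the list Incenp, Cdc20, Cks1b and Smc2, genes of chromosome segregation and the cell cycle, by −1.11, −1.09, −0.99 and −0.88. H2afz was the seventh call of the list and, like Hmgb2, has near copies. Without mouse 2, 0 of the 7 list genes and 0 of those 4 were called (edgeR adjusted p = 0.14 to 0.44 and 0.35 to 0.45). Without mouse 3, 1 of 7 and 1 of 4 were called, and without mouse 1 all of them.

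The share of cells with a transcript of a cell division gene was lower on the Il21 side as well, with no background share measured for these genes. A UMI of Mki67, Top2a, Birc5 or Ube2c was in 19.6% of Il21-only and 29.1% of Il4-only cells (exact 95% intervals 15.5 to 24.3% and 24.4 to 34.1%), and in 12.5% and 23.0% at 1500 UMIs per cell. Per mouse the shares were 22.1, 17.1 and 19.7% in Il21-only and 29.0, 28.1 and 30.6% in Il4-only cells, so the mice did not overlap. Summed proliferation genes took 5157, 4220 and 3545 CPM in Il21-only cells and 5547, 7045 and 8217 CPM in Il4-only cells, while neither cells lay at 4429 to 6184 CPM. DNA replication genes had a median of −0.38, and 0 of 18 were called by edgeR or DESeq2, with 7 at an unadjusted p under 0.05 in edgeR. When all cells with a UMI of 1 of those 4 genes were left out of every group, 18 genes were called in place of 90.

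Gata3, the master regulator of type 2 helper cells, stood at 74.7, 90.5 and 113 CPM in Il21-only and 137, 145 and 181 CPM in Il4-only cells. It was higher on the Il4 side in 3 of 3 mice without overlap (−0.77 ± 0.19 SE, edgeR adjusted p = 0.030), where 7.65% of all genes tested did not overlap in that direction. A Gata3 UMI was in 21.5% and 33.0% of cells, or 11.6% and 19.6% at equal depth. With 2 mice the direction stayed and the call was lost, at −0.68, −0.81 and −0.77 without mice 1, 2 and 3 (edgeR adjusted p = 0.13, 0.22 and 0.15). Of 18 type 2 genes 7 could be tested, where 0.495% of all genes were called lower, and Gata3 was the called one. The list as a whole did not go with it, since 5 of the 7 values were positive and the median was 0.12. Il5, Il3, Csf2 and Il1rl1 were among the 11 under the filter.

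A few further genes were higher in Il4-only cells. Lgals1, which encodes galectin-1 and is high in effector T cells, stood at 716, 538 and 658 CPM against 830, 728 and 1206 CPM (−0.50 ± 0.12, edgeR adjusted p = 0.028, and 0.16 and 0.28 without mice 2 and 3). Of the 13 tested genes of the non-Tfh effector list it was the called one, where 0.495% of all genes were called lower. Csf1, a macrophage growth factor gene, had 12.4, 7.14 and 9.40 CPM against 40.6, 18.1 and 39.5 CPM (−1.68 ± 0.43, edgeR adjusted p = 0.035), and Gadd45g, a stress-response gene that promotes type 1 cytokine production, had 10.4, 7.14 and 14.1 CPM against 32.9, 30.2 and 39.5 CPM (−1.73 ± 0.44, edgeR adjusted p = 0.037). Both are low, and both lost the call without any 1 mouse (edgeR adjusted p = 0.13 to 0.31). Ifi27l2a, an interferon-induced gene, differed by −0.29 ± 0.07 (edgeR adjusted p = 0.019, and 0.10 and 0.17 without mice 1 and 3). Among 12 tested interferon-stimulated genes it was the called one, against 0.495% of all genes called lower. Mrpl11 (−1.19), Mrps34 (−0.96), both of the mitochondrial ribosome, and Prdx4 (−1.06), a peroxiredoxin gene, were called at edgeR adjusted p = 0.028 to 0.042. Mrpl11 and Mrps34 lost their call without any 1 mouse (edgeR adjusted p = 0.053 to 0.29), and Prdx4 without mouse 2 or 3 (edgeR adjusted p = 0.47 and 0.24).

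How the genes moved with the amount of cytokine transcript was read in finer classes, as a description. In cells with 0 Il4 UMIs, Il2 stood at 648 ± 158 CPM with 0 Il21 UMIs, 1171 ± 308 with 1, 1687 ± 557 with 2 and 1649 ± 293 with 3 or more (SD, n = 3 mice). Tnf went from 560 ± 49.2 to 777 ± 116, 883 ± 187 and 945 ± 87.3 CPM over the same classes. The single-UMI class, which is outside the Il21-only group, lay between the others in both genes.

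Along Il4 the pattern was another. In cells with 0 Il21 UMIs, Gata3 measured 102, 118, 103, 188 and 210 CPM with 0, 1, 2 to 3, 4 to 9 and 10 or more Il4 UMIs, so the higher level lay in the cells from 4 UMIs on. Ifng measured 144, 65.4, 30.3, 22.6 and 20.2 CPM over these classes, low from the class of 2 to 3 UMIs. Tnfsf8 was high at the top of both scales, at 3623 ± 475 CPM with 3 or more Il21 UMIs and 3411 ± 182 CPM with 10 or more Il4 UMIs, against 1883 ± 121 CPM with 0 of both. Il2 in the top Il4 class spread widely, with 1572, 347 and 1765 CPM in the 3 mice. Depth rises with these classes as well, from a median of 2245 UMIs per cell with 0 of both to 2882 with 3 Il21 UMIs and 3538 with 10 or more Il4 UMIs, and its part in the levels was not tested.

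**Figure D3:**
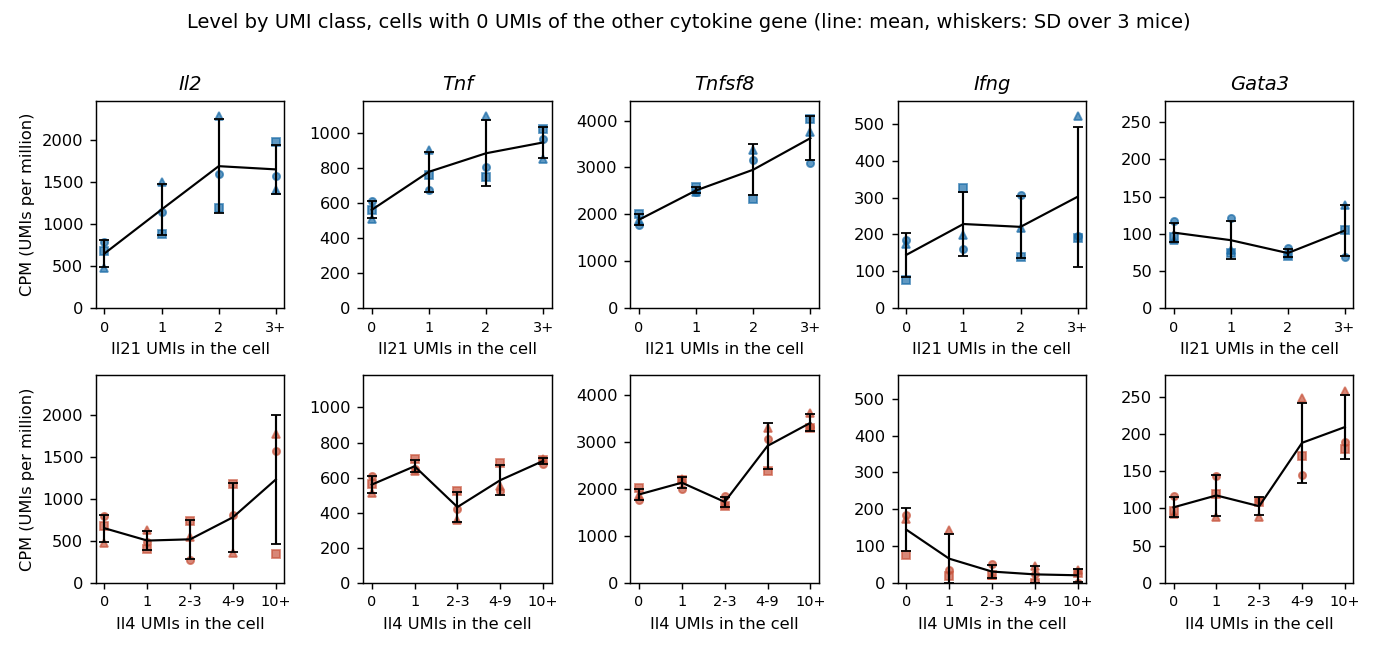
Level (CPM, vertical axis from 0) of 5 genes by the number of Il21 UMIs in cells with 0 Il4 UMIs (top) and by the number of Il4 UMIs in cells with 0 Il21 UMIs (bottom); points are mice, lines the mean and whiskers the SD over 3 mice, and the class of 0 is the same 726 cells in both. Il2 and Tnf are higher from 1 Il21 UMI on, Ifng is low from 2 to 3 Il4 UMIs on, Gata3 is higher from 4 Il4 UMIs on, and Tnfsf8 is high at the top of both scales.

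The neither cells gave a reference for each side, although they were shallower per cell. Both comparisons share the neither cells, so their values stand side by side and are not evidence for each other. Of 5452 genes 74 were called for Il21-only against neither cells (1.36%, 39 or 0.715% higher and 35 or 0.642% lower) and 102 for Il4-only against neither cells (1.87%, 28 or 0.514% higher and 74 or 1.36% lower). Il2 differed from neither cells by 1.33 in Il21-only cells (edgeR adjusted p = 1.6e-09) and 0.15 in Il4-only cells (edgeR adjusted p = 0.71). Tnf gave 0.71 and −0.08 (edgeR adjusted p = 3.0e-06 and 0.81) and Cd40lg 0.71 and 0.12 (edgeR adjusted p = 1.0e-06 and 0.62). These 3 genes were thus above neither cells on the Il21 side and not called on the Il4 side.

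Ifng was called in both directions, at 0.86 in Il21-only cells (edgeR adjusted p = 0.011) and −2.51 in Il4-only cells (edgeR adjusted p = 3.8e-07). The rise in Il21-only cells was lost without mouse 2 or 3 (edgeR adjusted p = 0.29 and 0.082), and the fall in Il4-only cells was kept in every alternative. No other gene of the Th1 and cytotoxic list was called above neither cells on the Il21 side. Still, 7 of its 10 tested values were positive and 3 negative, with a median of 0.55. Cxcr3 stood at 0.81 and Ccl3 at 0.97 without a call (edgeR adjusted p = 0.16 and 0.31). Nkg7 and Ccl4 were at −0.90 and −0.50 without a call in Il21-only cells (edgeR adjusted p = 0.12 and 0.56) and at −6.27 and −3.73 in Il4-only cells (edgeR adjusted p = 5.9e-09 and 2.5e-08), and Ccl5 was called lower on each side (−1.46 and −4.52, edgeR adjusted p = 0.043 and 4.3e-06, the former 0.48 without mouse 3). Myc stood at −0.21 and −0.79 (edgeR adjusted p = 0.70 and 0.00050). Gata3 was not called on either side, at −0.22 and 0.55 (edgeR adjusted p = 0.80 and 0.082). Stmn1 gave −0.33 and 0.63 (edgeR adjusted p = 0.61 and 0.023, the latter 0.45 without mouse 2).

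Further genes were called against the neither cells on each side, and those named here, other than Tnfsf8, were chosen after their values were seen. Itgb1, the integrin β1 gene, gave 0.62 and 0.60 (edgeR adjusted p = 0.0012 and 0.00090), and Tnfsf8 0.83 and 0.40 (edgeR adjusted p = 2.4e-11 and 6.3e-05). Lower on both sides were Ccr7, the receptor that keeps T cells in the T zone (−2.43 and −2.28), Tnfrsf9, which encodes 4-1BB (−1.86 and −1.21), and Capg, an actin-capping gene (−1.11 and −1.24), with edgeR adjusted p = 1.5e-08 to 0.00082. Without mouse 2 the Il21-only call of Capg (edgeR adjusted p = 0.061) and both calls of Itgb1 (edgeR adjusted p = 0.058 and 0.054) were lost. Cd74 and the class II genes H2-Aa, H2-Ab1 and H2-Eb1 were lower as well (−2.69 to −2.32). These 4 belong to the B-cell list whose summed level was 2165 to 4141 CPM in neither cells, 5 of whose 6 tested genes were called lower on each side, and the part of B-cell RNA in the neither cells was not tested. Other markers moved with these genes too, where 0.642% of all genes were called lower in Il21-only and 1.36% in Il4-only cells. Tnfrsf9 and Capg belong to the regulatory T-cell list, in which 9 of 9 tested values were negative and 3 were called lower on each side, and a Foxp3 UMI was in 4.13% of neither cells (2.44% at 1500 UMIs per cell) against 0.604% and 1.96%. Of 3 tested macrophage and dendritic cell markers, 2 were called lower in Il21-only cells (Cst3 and Tyrobp) and 3 in Il4-only cells (Lyz2 as well), and the summed list was at 555 to 681 CPM in neither cells. The part of these cells was not tested either.

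The same rule was applied to the IL-4 reporter sort, whose mice and cells took no part in choosing the groups. It gave 560 Il21-only cells (201, 149 and 210 per mouse) but 86 Il4-only cells (22, 28 and 36), at medians of 6736 to 8292.5 UMIs per cell. Of these 86 cells 58 had exactly 2 Il4 UMIs, and the highest count was 7. In the Tfh sort 100 of 358 Il4-only cells had 2, and the highest count was 51. The Il4 side of the reporter sort thus lay nearer the limit. Since the sorts also differ in strain, 10x chemistry and sequencing run, values of the sorts stand side by side and were not tested against each other. Of 7039 genes 73 were called (1.04%). Of the 63 genes higher in the Tfh sort 58 were tested there and 31 had the same sign. Of these 58, 4 were called in the same direction (Tnfsf8, Hif1a, Chst2 and Ifng), against 0.398% of all genes. In the other direction 1 was called (Ccl4), against 0.639%. Of the 27 lower genes 25 were tested, 14 had the same sign and 1 was called lower (Lgals1), against 0.639% of all genes. Among all genes tested in both sorts 51.4% had the same sign, so signs in the reporter sort were near that background for both sets.

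Tnfsf8 was called in both sorts. In the reporter sort it stood at 1122, 1012 and 1070 CPM in Il21-only and 370, 508 and 308 CPM in Il4-only cells (1.41 ± 0.18 SE, edgeR adjusted p = 8.5e-06), and it was called in every alternative there. In the Tfh sort it lost its call in 3 of 19 alternatives, at 0.14 with a limit of 4 UMIs, 0.26 without cycling cells and 0.27 in 1 of 2 depth-matched draws (edgeR adjusted p = 0.72, 0.21 and 0.10). Hif1a, the hypoxia-inducible factor gene, gave 468, 476 and 569 CPM against 279, 258 and 322 CPM (0.82 ± 0.13, edgeR adjusted p = 0.00017), beside 0.48 ± 0.09 in the Tfh sort, where its call was lost without mouse 2 or 3 (edgeR adjusted p = 0.14 and 0.064). Both genes were free of overlap in both sorts. Lgals1 stood at 446, 544 and 523 CPM against 756, 810 and 949 CPM (−0.74 ± 0.12, edgeR adjusted p = 0.00028). Chst2 gave 1.06 ± 0.25 (edgeR adjusted p = 0.025) and lost its call without any 1 mouse (edgeR adjusted p = 0.061 to 0.25).

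The cytokine genes were less certain in the reporter sort. Ifng stood at 23.7, 118 and 91.5 CPM against 0, 0 and 30.8 CPM, on 344 and 9 UMIs. The sides overlapped, and the call (2.71 ± 0.69, edgeR adjusted p = 0.041) was lost without mouse 2 or 3 (edgeR adjusted p = 0.18 and 0.068). Of the 7 Th1 and cytotoxic genes tested in the reporter sort, Ifng was called higher and 3 were called lower (Ccl4, Gzmb and Id2). Over all genes 0.398% were called higher and 0.639% lower. The median of −1.27 covers other genes than the median of 3.19 in the Tfh sort. Ccl3, Nkg7 and Gzmk were not tested in the reporter sort, and Gzmb was not tested in the Tfh sort. Cxcr3 had the same sign in both sorts (1.45 in the reporter sort, not called, edgeR adjusted p = 0.30), and Ccl4 and Id2 the opposite sign. Il2 measured 380, 464 and 410 CPM against 42.9, 545 and 68.5 CPM, higher in 2 of 3 mice and not called (0.97 ± 0.29, edgeR adjusted p = 0.13). Tnf was higher in 3 of 3 mice, at 681, 673 and 666 CPM against 643, 516 and 353 CPM, and not called (0.46 ± 0.13, edgeR adjusted p = 0.069). Cd40lg differed by 0.12 ± 0.14 (edgeR adjusted p = 0.89) and Gata3 by −0.57 ± 0.17 (edgeR adjusted p = 0.13). Ccl4 stood at 52.2, 28.2 and 22.1 CPM against 263, 103 and 10.3 CPM, the opposite of the Tfh sort in 2 of 3 mice (−1.72 ± 0.45, edgeR adjusted p = 0.049), and was not called without mouse 1 or 2 (edgeR adjusted p = 0.46 and 0.25). Of the 7 proliferation genes called in the Tfh sort 0 were called here by edgeR or DESeq2, with 0 at an unadjusted p under 0.05.

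**Figure D4:**
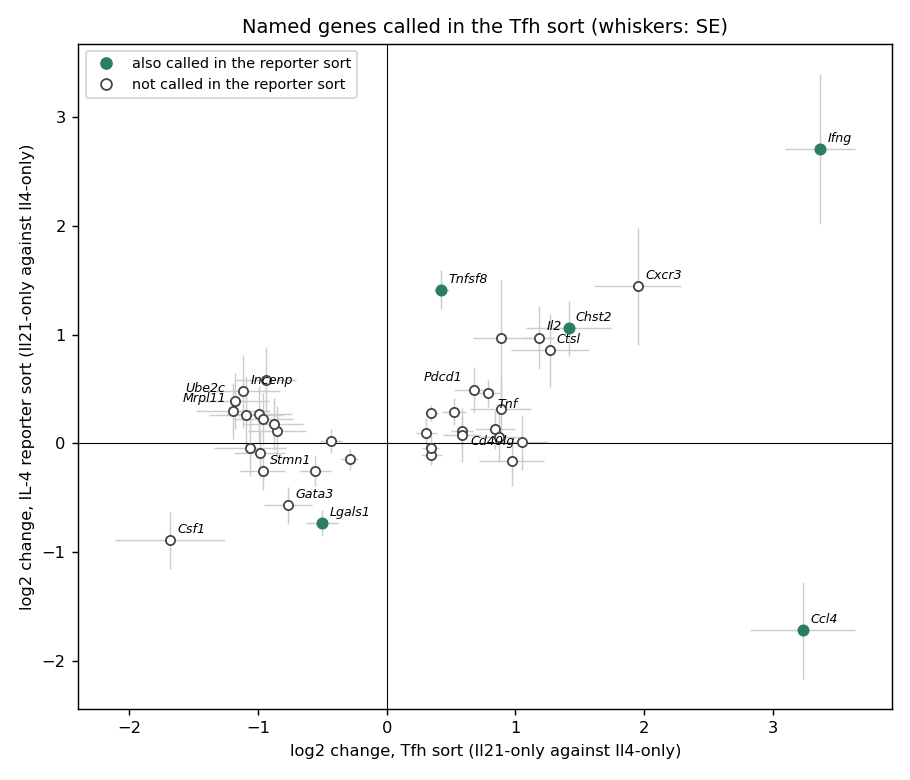
Log2 change between Il21-only and Il4-only cells in the Tfh sort (horizontal axis) and the IL-4 reporter sort (vertical axis) for the 40 named genes that were called in the Tfh sort and tested in both; whiskers are SE and filled points are the 5 also called in the reporter sort. Ifng, Chst2, Tnfsf8 and Lgals1 have the same sign in both sorts, Ccl4 the opposite sign, and the cell division genes left of 0 lie around 0 on the vertical axis.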

How the data were processed

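Single-cell RNA of 1 lane per sort was deposited by the authors as UMI counts per gene and cell, with hashtag antibody counts per cell in separate tables. Cell Ranger 2.2.0, bcl2fastq 2.18.0.12 and 2.20.0.422 and the build mm10/GRCm38 are given per the submitters' processing notes, and per the file headers the reporter counts came from Cell Ranger 3.0.2. The annotation release is not given in the sources used here. The counts of 67 repeated symbols were summed within the 28692 features.

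A cell went to the mouse whose hashtag had 10 or more counts and 3 times the next, which placed 3780 of the 3916 Tfh cells that passed the gene and mitochondrial limits (136 had no mouse). No doublet caller was run. UMIs were summed per mouse over Il21-only, Il4-only, both and neither cells, 12 sums per sort. edgeR 4.0.16 (R 4.3.3) fitted all 4 groups together by quasi-likelihood with TMM scaling, filterByExpr at a minimum count of 10 and the mouse as a block, since each mouse gave every group. Deviations of the Il21-only and Il4-only sums of 1 mouse correlated at −0.0922, 0.126 and −0.00402 over 1462 genes in the Tfh sort and at 0.195, 0.182 and 0.557 over 1368 genes in the reporter sort. Il21, Il4 and Il13 are not results. The cells, lists and tests were chosen with earlier results of these data known.

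Named genes were 14 chosen genes (12 could be tested), up to 15 of the largest called differences in each direction with 3 of 3 mice alike and 20 CPM or more, leaving out unnamed gene models and receptor segments, and up to 4 called genes of each of 27 lists. On simulated counts with known changes, the Tfh fit (5462 genes) recovered 96% of 4-fold and 60% of 2-fold changes, and the reporter fit (6967 genes) 87% and 38%. Of the calls on simulated counts, 16 of 172 and 4 of 129 were false, so the false share in the Tfh fit was above the threshold of 0.05. The simulated counts held no mouse effect, and the changes were put into the Il21-only sums alone. DESeq2 1.42.0, other filters, UMI limits, gates and depth matching were alternatives. Shares were also computed after thinning to 1500 UMIs per cell, which left out 4 Il21-only and 6 Il4-only cells. Intervals (scipy 1.17.1) cover counting error only.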

Additional observations from a re-analysis of the deposited data

Results flagged for a closer look

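Ube2c, a mitotic ubiquitin-conjugating enzyme gene, had values of opposite sign in the 2 sorts, and only the value of the Tfh sort was called. The log2 change between Il21-only and Il4-only cells was −1.18 in the Tfh sort, lower in 3 of 3 mice, and 0.39 in the reporter sort, higher in 3 of 3 mice (109, 110 and 185 CPM against 91.1, 92.1 and 140 CPM, SE 0.26, edgeR adjusted p = 0.72). Every mouse of one sort moved one way and every mouse of the other the opposite way. The difference was not tested, and strain, chemistry and run cannot be told apart from the sort.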

How the results depend on the processing

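The main fit called 90 genes between Il21-only and Il4-only cells, and the counts here are all calls of a setting. DESeq2 gave 53, of which 50 were among the 90, and gave no adjusted p for 38 of the 90. A gate of 1000 genes per cell and 5% mitochondrial UMIs gave 54 (48 among the 90), and a limit of 4 UMIs 10 (8). Leaving out cycling cells gave 18 (17). Depth-matched cells gave 26 (26), and another draw, chosen after seeing the data, 22 (22). Leaving out cells with a type 1 transcript, also chosen after seeing the data, gave 59 (57). Leaving out 1 mouse gave 27 to 111 (26 to 64). For Il21-only against neither cells (74), the counts were 31 with DESeq2, 131 without a filter, 34 at 1 UMI, 27 at 4 UMIs and 23 to 61 without 1 mouse. For Il4-only against neither cells (102), they were 34 with DESeq2, 189 without a filter, 29 at 4 UMIs, 35 at 1000 genes, 58 without cycling cells, 63 without type 1 cells, 40 at matched depth and 51 to 86 without 1 mouse. In the reporter sort (73), they were 130 with the 2 groups alone, 168 at 1 UMI, 37 without cycling cells, 17 and 27 at matched depth and 39 to 45 without 1 mouse, and 4 UMIs left sums under 10 cells and gave no value. Without the mouse as a block, 70, 51, 80 and 40 genes were called in these 4 comparisons, and in the first Cd3e, Cdc20, Cenpa, Chst2, Myc, Smc2 and Yme1l1 lost their call. Fewer cells enter most of these settings, and the cause of the changes was not tested.

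Among the named genes, the value kept its direction and side of the threshold in 1010 settings, lost its call in 377, gained one in 2 and changed sign in 15, and DESeq2 gave no adjusted p in 37. Sign changes were seen in Bcl6 (−0.0223 at 1 UMI, −0.11 in the other depth-matched draw), Cxcr5 (−0.132 to 0.269 without 1 mouse, lowest without mouse 3, −0.00264 at 1 UMI), Icos (−0.104 to 0.619 without 1 mouse, lowest without mouse 1), Maf (0.17 at 4 UMIs), Sostdc1 (−0.126 to 0.36 without 1 mouse, lowest without mouse 3, −0.107 at 1 UMI, −0.0339 without cycling cells, −0.0915 in the other draw) and Tcf7 (−0.189 to 0.0318 without 1 mouse, highest without mouse 3, 0.00541 without cycling cells), none of which was called. Cenpa went to 0.651 without cycling cells, which were chosen by genes of the same kind, Malat1 in Il4-only against neither cells to 0.0147 at matched depth, and Ccl4 in the reporter sort to 7.69 without cycling cells. The cause was not tested.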

Other observations

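In the reporter sort, Il21-only and Il4-only cells differed mainly in other genes, named here after their values were seen. Spry1, a feedback inhibitor of receptor tyrosine kinase signals that lies near Il21, stood at 160, 177 and 194 CPM against 37.5, 44.2 and 61.7 CPM (log2 1.85, edgeR adjusted p = 2.5e-06), and was called without any 1 mouse. Tox, a factor of Tfh development, gave 0.94 (edgeR adjusted p = 0.0074, 0.089 and 0.057 without mice 1 and 2) and Slamf6, a receptor for T and B cell contact, 0.62 (edgeR adjusted p = 0.023, 0.43 and 0.25 without mice 2 and 3). Of 22 Tfh core genes tested there 3 were called higher and 0 lower (median 0.53), where 0.398% of all genes were called higher.

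Higher in Il4-only cells of that sort was Epas1, which encodes HIF-2α, at 129, 99.4 and 68.5 CPM against 7.12, 27.4 and 10.5 CPM (−2.76, edgeR adjusted p = 2.0e-05), called without any 1 mouse. Id2, an inhibitor of E proteins, gave −1.27 (edgeR adjusted p = 4.4e-05) and also kept its call. Il3 (−3.40) lost its call without mouse 1 (edgeR adjusted p = 0.22), and Il1rl1 (−3.19), the IL-33 receptor gene, without mouse 1 or 3 (edgeR adjusted p = 0.41 and 0.16). Of 15 non-Tfh effector genes tested there 7 were called lower in Il21-only cells and 0 higher (median −0.63), and of 13 type 2 genes 5 and 0 (median −0.61), where 0.639% of all genes were called lower. These rest on 86 Il4-only cells, and the gate held GFP-positive CD44+ cells and not Tfh cells alone.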
